A study of Homo sapiens with 12 samples.

Results

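The nuclear-encoded subunits of respiratory complexes II to V, together with cytochrome c, were followed through RNA-seq libraries of HCT116 cells. They were 44 genes of the 62703 in the count table, chosen by name from the known makeup of the complexes: 4 of complex II, 9 of complex III, 1 of cytochrome c, 12 of complex IV and 18 of ATP synthase (complex V), its inhibitor included. All 44 were among the 15920 genes that passed the filter on low counts. HCT116 is a human colorectal cancer cell line, and the labels call the control siRNA libraries wild-type and the others silenced for HNRNPU. The cells received 2 nM of siRNA against hnRNP U (gene HNRNPU) or of control siRNA for 48 h, which lowers a transcript for a time and removes no gene. For each siRNA, total RNA and heavy polysomal RNA (HP, the RNA that sediments with the mRNAs carrying most ribosomes) were sequenced, 3 libraries of each from 3 numbered experiments, giving 4 groups and 12 libraries. The groups were HP RNA with hnRNP U siRNA, total RNA with hnRNP U siRNA, HP RNA with control siRNA and total RNA with control siRNA. Lighter fractions were not among the libraries, so a ratio of HP to total RNA is no full profile of a gradient.

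In the inner mitochondrial membrane, complex II (succinate dehydrogenase) and complex III pass electrons on, cytochrome c carries them to complex IV (cytochrome c oxidase), and ATP synthase uses the proton gradient so built to make ATP. Complex II is wholly nuclear-encoded, whereas complexes III and IV and ATP synthase join nuclear subunits made in the cytoplasm with a few made from mitochondrial DNA. Many nuclear subunits are small proteins, and a short coding sequence has room for few ribosomes. The study asked whether hnRNP U, an RNA-binding protein, acts on nuclear-encoded mitochondrial mRNAs through RNA G-quadruplexes (RG4s, folds of stacked guanines), and the comparisons of siRNAs within each RNA and of the HP/total ratio bear on these transcripts.

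Library totals ran from 30305012 to 39761103 counts. HNRNPU itself was at 159 ± 9.47 CPM (CPM, counts as a share of the TMM-scaled library; SD, n = 3) with hnRNP U siRNA, against 1028 ± 67.9 CPM (SD, n = 3) with control siRNA, in total RNA. In HP RNA it was at 78.3 ± 3.71 CPM with hnRNP U siRNA, against 1080.0 ± 61.5 CPM with control siRNA (SD, n = 3 each). Epithelial markers were present except VIL1, which stayed under 1 CPM in every library, and 6 of 7 markers of blood, connective tissue and endothelium stayed under 1 CPM. The exception, COL1A1, a collagen chain, averaged 9.98 CPM with hnRNP U siRNA and 16.7 CPM with control siRNA in total RNA. The summed markers of these other cells ran from 9.69 to 10.7 CPM and from 16.5 to 17.9 CPM in those groups, and their part in the results was not tested. In bulk RNA of this kind, less RNA per cell and fewer cells holding it cannot be told apart.

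Across the 44 genes, hnRNP U silencing went with small changes in both directions. In total RNA, 7 rose and 7 fell at an adjusted p under 0.05 (edgeR's quasi-likelihood test, Benjamini-Hochberg over all genes tested, which gave every adjusted p below unless another test is named), and 30 were not called. Among all 15920 genes, 28.0% rose and 29.3% fell. In HP RNA, 6 rose and 6 fell, where 25.5% of all genes rose and 26.3% fell. The median log2 fold change of the members was 0.01 in total RNA and 0.02 in HP RNA, against 0.00 and 0.01 over all genes. In total RNA 37 of the 44 members, or 84.1%, lay within 0.2 of 0 on the log2 scale, where 41.4% of all genes did, and no member passed 0.48 in size. In HP RNA this held for 38 members, or 86.4%, against 38.1% of all genes. For the 37 nuclear subunits of complex I the shares were 59.5% in total RNA and 56.8% in HP RNA. The genes so compared were not matched for level. The values of hnRNP U siRNA and control siRNA did not overlap for 18 members in total RNA and 18 in HP RNA, where 62.0% and 58.3% of all genes did not overlap. CYCS, UQCR11 and UQCRC2 were higher in both RNAs, and ATP5MC2, ATP5PO, COX5B and SDHD were lower in both. No member had opposite calls, 25 were called in neither RNA, 7 were called for total RNA only and 5 for HP RNA only. Being called in 1 RNA is not a difference between RNAs, which the HP/total test addresses.

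The numbered experiments deviated together, and with the experiment as a block 13 members rose and 9 fell in HP RNA (29.2% and 29.5% of all genes under the same block). The 10 gained were ATP5F1E, ATP5PB, ATP5PF, COX6A1, COX6B1, COX7C, CYC1, NDUFA4, UQCRFS1 and UQCRQ. With all 12 libraries normalized and fitted at once, 14 rose and 6 fell in HP RNA. Leaving out HP replicate 3 of control siRNA left 3 that rose. In total RNA the block kept all 14 calls and added ATP5F1A and COX4I1, both lower. No share over all genes is at hand for the fit of all 12 libraries, the fit without control HP replicate 3 or the total RNA block. Their counts thus have no background to be set against.

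**Figure D1:**
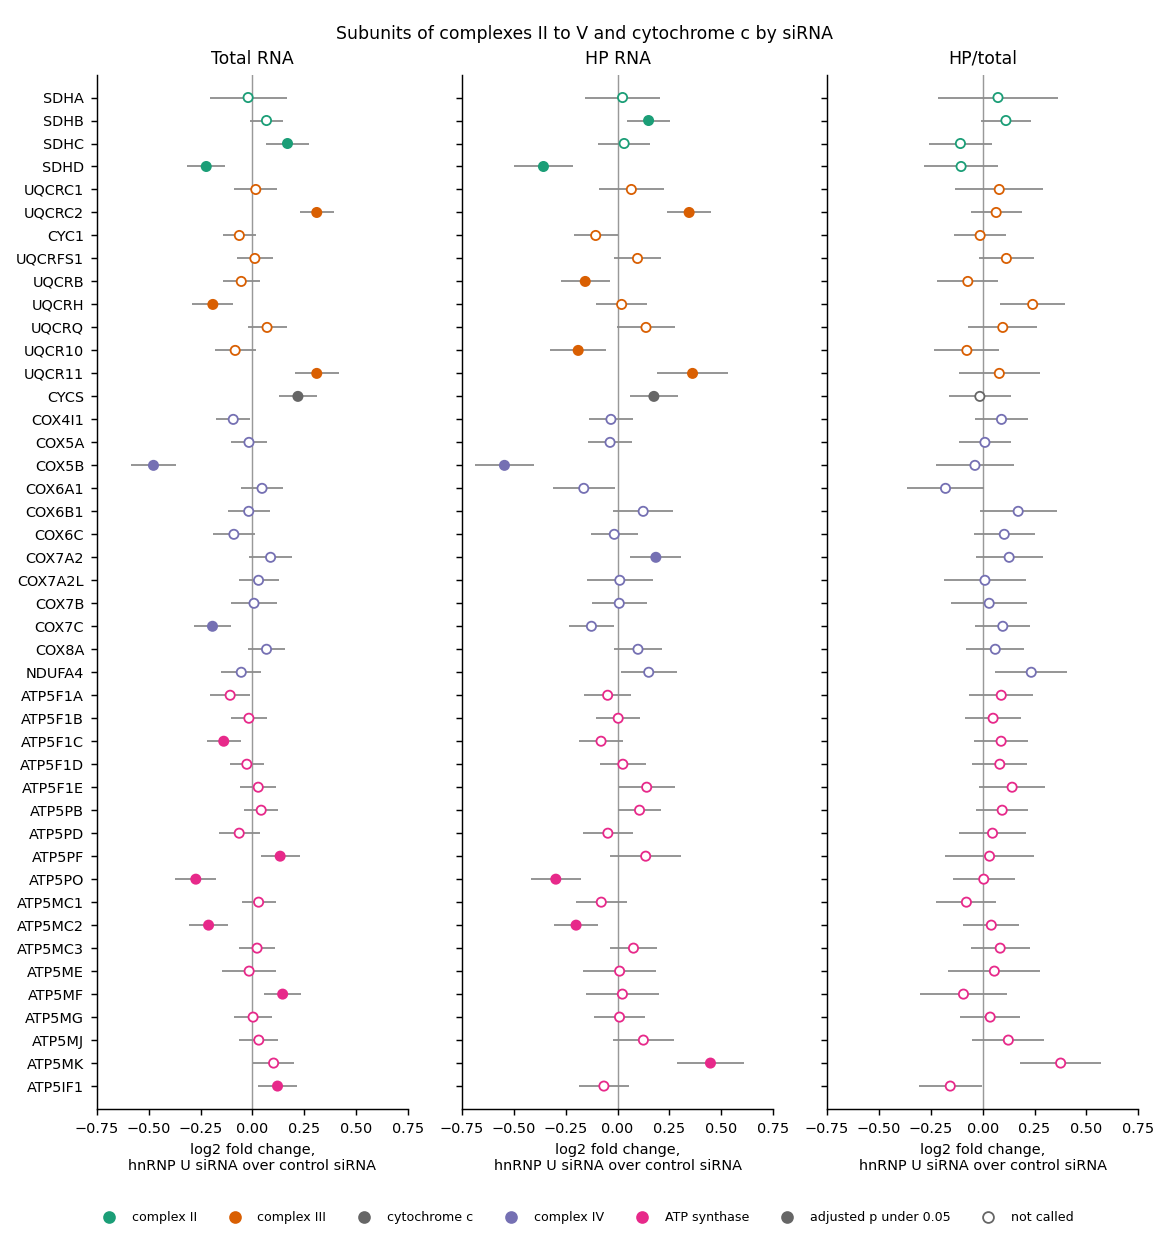
Log2 fold change (x axis, hnRNP U siRNA over control siRNA) of each of the 44 genes (y axis, by complex) in total RNA, in HP RNA and as HP/total. Points are edgeR estimates, bars their 95% intervals, and filled points have an adjusted p under 0.05; COX5B lies farthest left in total and HP RNA, and no point is filled for HP/total.

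In complex II, which oxidizes succinate, one membrane anchor fell and the other rose in total RNA. SDHD, the small anchor subunit, had 62.5, 59.3 and 59.3 CPM with hnRNP U siRNA, against 72.5, 69.3 and 68.8 CPM with control siRNA, in total RNA. Its log2 fold change was −0.22 (SE 0.04, adjusted p = 3.3e-04). HP RNA held 91.7, 77.8 and 81.0 CPM with hnRNP U siRNA, against 113, 101 and 98.9 CPM with control siRNA. The 2 sets of libraries did not overlap in either RNA, and the HP change was −0.36 (SE 0.07, adjusted p = 2.8e-04). SDHC, the large anchor, rose in total RNA with 38.7, 37.5 and 40.8 CPM with hnRNP U siRNA, against 34.5, 34.4 and 34.8 CPM with control siRNA. Its estimate was 0.17 (SE 0.05, adjusted p = 0.0068), and in HP RNA, where the libraries overlapped, 0.03 (SE 0.06, adjusted p = 0.68). SDHB, the iron-sulphur subunit, rose in HP RNA with 239, 234 and 232 CPM with hnRNP U siRNA, against 213, 202 and 206 CPM with control siRNA. This was 0.15 (SE 0.05, adjusted p = 0.018), a call that was lost without HP replicate 1 of hnRNP U siRNA (adjusted p = 0.073) or without HP replicate 2 or 3 of control siRNA (adjusted p = 0.067 and 0.056). In total RNA SDHB had 126, 128 and 130.3 CPM with hnRNP U siRNA, against 120.0, 124 and 122 CPM with control siRNA, and its log2 fold change of 0.07 was not called (−0.01 to 0.15, 95% interval). SDHA, the flavoprotein, was not called in either RNA, with −0.02 in total and 0.02 in HP RNA. Its level is uncertain, since SDHAP4, a copy of part of SDHA, took 5.33 to 6.01 CPM with hnRNP U siRNA and 6.76 to 7.61 CPM with control siRNA, where SDHA had 20.6, 21.4 and 20 CPM with hnRNP U siRNA, against 17.2, 24.1 and 21.4 CPM with control siRNA, in total RNA.

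Of the 4 core subunits of complex III, 1 was called, UQCRC2. UQCRC2 (ENSG00000140740, chr16:21953288-21983660, plus strand, GRCh38), a core subunit of the matrix side that the study also followed as a protein, had 193, 193 and 201 CPM with hnRNP U siRNA, against 156, 158 and 158 CPM with control siRNA, in total RNA. Its HP values were 309.5, 321 and 318 CPM with hnRNP U siRNA, against 239, 238 and 252 CPM with control siRNA. All libraries with hnRNP U siRNA exceeded all with control siRNA, at 0.31 (SE 0.04, adjusted p = 3.7e-06) in total RNA and 0.35 (SE 0.05, adjusted p = 1.5e-05) in HP RNA. Its partner core subunit UQCRC1 had 0.02 and 0.07, CYC1, the haem-bearing cytochrome c1, −0.06 and −0.11, and UQCRFS1, the Rieske iron-sulphur protein, 0.01 and 0.10 in total and HP RNA, none called.

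The small accessory subunits of complex III went both ways. UQCR11 (ENSG00000127540, chr19:1597169-1605473, minus strand) had 55.8, 51.8 and 49.0 CPM with hnRNP U siRNA, against 42.5, 41.9 and 41.6 CPM with control siRNA, in total RNA. HP RNA gave 26.1, 23.1 and 23.7 CPM with hnRNP U siRNA, against 17.8, 17.3 and 20.2 CPM with control siRNA. Both were clear of the control libraries, at 0.31 (SE 0.05, adjusted p = 5.6e-05) and 0.36 (SE 0.08, adjusted p = 0.001). UQCRH, the hinge protein that helps cytochrome c to dock, fell in total RNA with 118, 121 and 118 CPM with hnRNP U siRNA, against 146, 133 and 128 CPM with control siRNA. The change was −0.19 (SE 0.05, adjusted p = 0.0022), whereas in HP RNA, with 79.5, 79.3 and 73.7 CPM with hnRNP U siRNA, against 74.7, 78.1 and 71.3 CPM with control siRNA, it was 0.02 (SE 0.06, adjusted p = 0.8) and the libraries overlapped. UQCR10 fell in HP RNA, with 32.3, 33.0 and 31.2 CPM with hnRNP U siRNA, against 35.3, 37.2 and 35.0 CPM with control siRNA. This change of −0.19 (SE 0.06, adjusted p = 0.019) was lost without HP replicate 3 of hnRNP U siRNA (adjusted p = 0.071) or HP replicate 2 of control siRNA (adjusted p = 0.057). UQCRB had 138, 133 and 127 CPM with hnRNP U siRNA, against 145, 151 and 137 CPM with control siRNA, in HP RNA, where the groups overlapped. Its change of −0.16 (SE 0.06, adjusted p = 0.027) was lost in 4 of 6 fits that left out 1 library, namely HP replicates 2 and 3 of hnRNP U siRNA (adjusted p = 0.061 and 0.11) and HP replicates 1 and 2 of control siRNA (adjusted p = 0.055 and 0.083). UQCRQ, the fifth, had 0.07 in total and 0.14 in HP RNA, neither called.

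CYCS, the gene of somatic cytochrome c, was higher in both RNAs. In total RNA it had 268, 268 and 253 CPM with hnRNP U siRNA, against 237, 219 and 220.3 CPM with control siRNA. HP libraries had 339, 339.9 and 321 CPM with hnRNP U siRNA, against 296, 300.5 and 268 CPM with control siRNA. The changes were 0.22 (SE 0.04, adjusted p = 3.8e-04) and 0.18 (SE 0.05, adjusted p = 0.012), and the HP call was lost without HP replicate 3 of control siRNA (adjusted p = 0.087).

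COX5B (ENSG00000135940, chr2:97646062-97648383, plus strand, GRCh38), a zinc-binding subunit on the matrix side of complex IV, fell most of the 44 genes in both RNAs. It had 47.6, 53.0 and 54.3 CPM with hnRNP U siRNA, against 74.1, 71.0 and 70.0 CPM with control siRNA, in total RNA. In HP RNA it had 82.3, 75 and 78.8 CPM with hnRNP U siRNA, against 125, 108 and 103 CPM with control siRNA. Every library with hnRNP U siRNA lay below every control library, at −0.48 (SE 0.05, adjusted p = 5.8e-07) and −0.55 (SE 0.07, adjusted p = 3.1e-06). COX7C, a small membrane subunit, fell in total RNA with 104, 112 and 111 CPM with hnRNP U siRNA, against 127, 123 and 122 CPM with control siRNA, a change of −0.19 (SE 0.04, adjusted p = 9.7e-04), and had −0.13 (SE 0.05, adjusted p = 0.0526) in HP RNA. COX7A2, the subunit VIIa form of most tissues, rose in HP RNA with 99.5, 89.3 and 94.2 CPM with hnRNP U siRNA, against 81.8, 84.0 and 77.2 CPM with control siRNA. That change of 0.18 (SE 0.06, adjusted p = 0.014) was lost without HP replicate 1 of hnRNP U siRNA (adjusted p = 0.082) or HP replicate 3 of control siRNA (adjusted p = 0.087). In total RNA COX7A2 had 89.8, 93.7 and 91.4 CPM with hnRNP U siRNA, against 93.1, 82.6 and 82.5 CPM with control siRNA, with overlapping groups and 0.09 (SE 0.05, adjusted p = 0.13). The other 9 genes of complex IV were not called in either RNA. Among them COX4I1, the regulatory subunit IV, came nearest in total RNA with −0.09 (SE 0.04, adjusted p = 0.0504), a call under the block (adjusted p = 0.025).

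In the catalytic F1 head of ATP synthase, 1 of 5 subunits was called in total RNA and none in HP RNA. ATP5F1A, the alpha subunit and one the study followed as a protein, had 561, 603 and 566 CPM with hnRNP U siRNA, against 588, 644 and 626 CPM with control siRNA, in total RNA. The libraries overlapped at −0.11 (SE 0.05, adjusted p = 0.0534), and the block called it lower (adjusted p = 0.011), as did the fits without total replicate 2 of hnRNP U siRNA or total replicate 1 of control siRNA (adjusted p = 0.044 and 0.0084). In HP RNA it had 917, 1013 and 930.4 CPM with hnRNP U siRNA, against 913, 1013 and 960.0 CPM with control siRNA, and −0.05 (SE 0.05, adjusted p = 0.48). ATP5F1B, the catalytic beta subunit, had −0.02 and 0.00, with 95% intervals of −0.11 to 0.07 and −0.10 to 0.11. ATP5F1C, the gamma subunit of the rotating shaft, fell in total RNA with 165, 169 and 165 CPM with hnRNP U siRNA, against 179.8, 188 and 181 CPM with control siRNA, a change of −0.14 (SE 0.04, adjusted p = 0.0061), and had −0.08 (SE 0.05, adjusted p = 0.2) in HP RNA. ATP5F1D and ATP5F1E, the delta and epsilon subunits, were not called.

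The peripheral stalk, which holds the F1 head still, had 1 subunit lower and 1 higher in total RNA. ATP5PO, the subunit at the top of the stalk that confers oligomycin sensitivity, had 47.7, 43.4 and 47.3 CPM with hnRNP U siRNA, against 55.2, 55.2 and 56.2 CPM with control siRNA, in total RNA. Its HP libraries had 70.4, 64.6 and 71.2 CPM with hnRNP U siRNA, against 83.4, 81.2 and 82.8 CPM with control siRNA. No library crossed over, and the changes were −0.27 (SE 0.05, adjusted p = 1.0e-04) and −0.30 (SE 0.06, adjusted p = 3.1e-04). ATP5PF, coupling factor 6, rose in total RNA with 80.2, 86.4 and 85.5 CPM with hnRNP U siRNA, against 78.7, 76.7 and 73.7 CPM with control siRNA. Its change of 0.13 (SE 0.04, adjusted p = 0.016) was lost without total replicate 2 or 3 of hnRNP U siRNA (adjusted p = 0.079 and 0.052) or total replicate 3 of control siRNA (adjusted p = 0.091), and in the fit of all 12 libraries. In HP RNA ATP5PF had 0.14 (SE 0.08, adjusted p = 0.17), and ATP5PB and ATP5PD, subunits b and d, were not called in either RNA.

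The 3 genes of subunit c encode different import signals and the same mature protein of the membrane rotor. ATP5MC2 alone of these was called. It had 93.1, 99.0 and 104 CPM with hnRNP U siRNA, against 116, 111 and 114 CPM with control siRNA, in total RNA. In HP RNA it had 148, 146 and 155 CPM with hnRNP U siRNA, against 168, 168 and 168 CPM with control siRNA. Its changes of −0.21 (SE 0.04, adjusted p = 7.3e-04) and −0.20 (SE 0.05, adjusted p = 0.003) came with no overlap of libraries. ATP5MC1 had 101, 102 and 102 CPM with hnRNP U siRNA, against 97.4, 101 and 99.2 CPM with control siRNA, in total RNA, apart but not called. In HP RNA ATP5MC1 had 131, 118 and 131 CPM with hnRNP U siRNA, against 126, 137 and 129 CPM with control siRNA, and the groups overlapped. ATP5MC3 had 210.2, 225 and 223 CPM with hnRNP U siRNA, against 214, 214 and 218 CPM with control siRNA, in total RNA. Its HP values were 391, 410.2 and 398 CPM with hnRNP U siRNA, against 353, 398 and 358 CPM with control siRNA, again overlapping. The log2 fold changes were 0.03 and −0.08 for ATP5MC1, and 0.02 and 0.08 for ATP5MC3.

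Of the small membrane subunits of ATP synthase, ATP5MK rose most of all 44 genes in HP RNA. ATP5MK (ENSG00000173915, chr10:103389041-103396492, minus strand), a subunit that helps ATP synthase dimers form, had 48.6, 52.5 and 45.3 CPM with hnRNP U siRNA, against 31.8, 38.9 and 34.0 CPM with control siRNA, in HP RNA. In total RNA it had 81.8, 90.8 and 88.3 CPM with hnRNP U siRNA, against 83.2, 80.7 and 78.6 CPM with control siRNA. The HP libraries did not overlap, at 0.45 (SE 0.08, adjusted p = 8.7e-05), whereas the total libraries overlapped at 0.10 (SE 0.05, adjusted p = 0.069). ATP5MF, subunit f, rose in total RNA with 57.6, 56.0 and 56.9 CPM with hnRNP U siRNA, against 51.6, 50.9 and 51.2 CPM with control siRNA, a change of 0.15 (SE 0.04, adjusted p = 0.0066) that the fit of all 12 libraries did not call, and had 0.02 (SE 0.08, adjusted p = 0.83) in HP RNA. ATP5MF overlaps PTCD1 on its strand (10.4 CPM over the total libraries), so its count is uncertain, and ATP5MK overlaps TAF5 (21.5 CPM) on the opposite strand. ATP5IF1, the inhibitor that binds F1 when the proton gradient fails, rose in total RNA with 88.0, 95.5 and 94.8 CPM with hnRNP U siRNA, against 86.8, 85.7 and 82.8 CPM with control siRNA. Its change of 0.12 (SE 0.04, adjusted p = 0.026) was lost without total replicate 2 or 3 of hnRNP U siRNA (adjusted p = 0.12 and 0.083) or total replicate 3 of control siRNA (adjusted p = 0.11). ATP5ME, ATP5MG and ATP5MJ were not called.

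**Figure D2:**
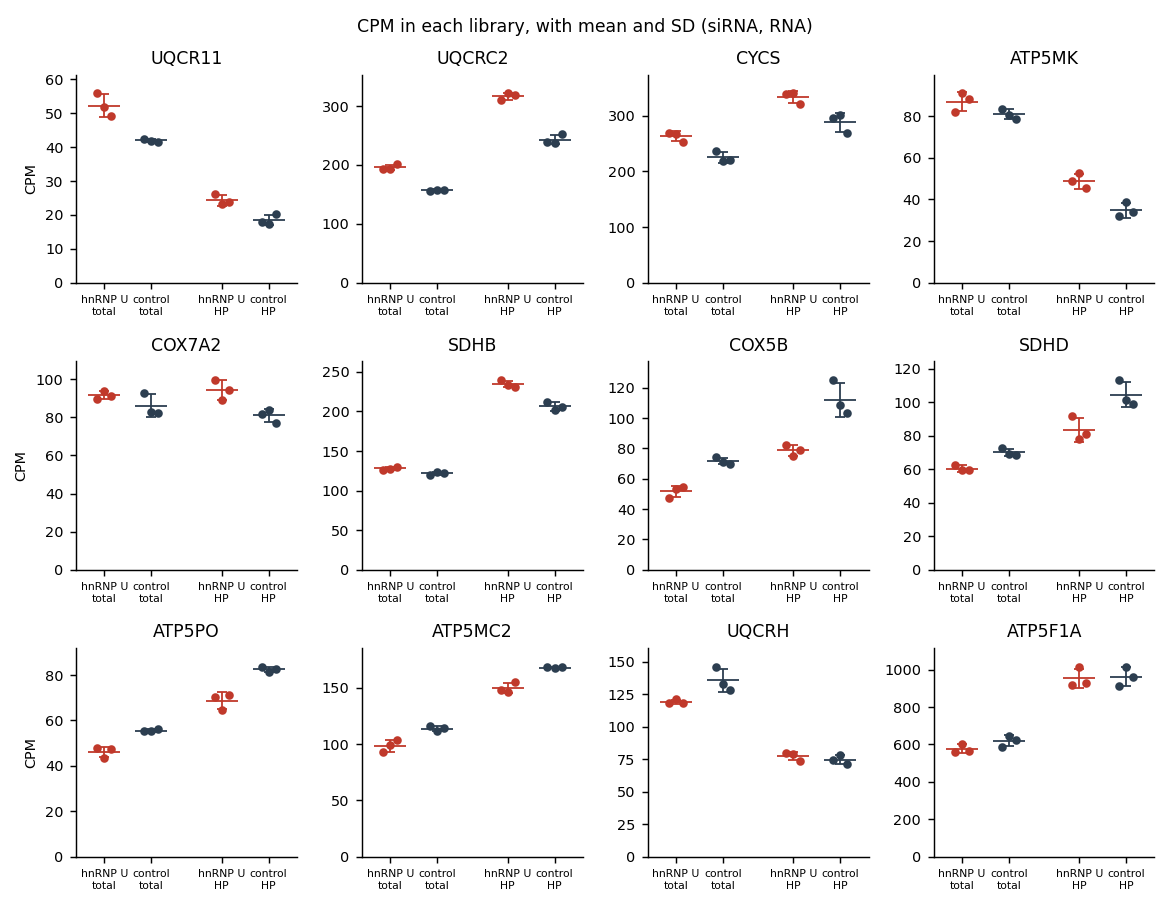
CPM (y axis, from 0) of 12 of the genes in each library, by siRNA and RNA on the x axis; points are libraries, with the mean and SD of 3. UQCR11, UQCRC2 and CYCS are higher with hnRNP U siRNA in both RNAs, COX5B, SDHD, ATP5PO and ATP5MC2 are lower in both, and ATP5MK stands apart in HP RNA.

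Summed over the members, the shares of all counts were close with either siRNA, with no test. The 44 genes together took 0.650% ± 0.0135 of all counts in total RNA with hnRNP U siRNA and 0.642% ± 0.0044 with control siRNA (SD, n = 3 each). In HP RNA they took 0.858% ± 0.0029 with hnRNP U siRNA and 0.864% ± 0.0051 with control siRNA (SD, n = 3 each). ATP synthase held 0.340% ± 0.0077 and 0.338% ± 0.0020 in total RNA and at 0.486% ± 0.0084 and 0.493% ± 0.0082 in HP RNA, hnRNP U siRNA before control siRNA in each pair (SD, n = 3). By complex, 2 members of complex III were higher and 1 lower in total RNA, 0 and 2 of complex IV, 1 and 1 of complex II, 3 and 3 of ATP synthase, and 1 and 0 for cytochrome c, where 28.0% of all genes were higher and 29.3% lower. In HP RNA 2 of complex III were higher and 2 lower, 1 and 1 of complex IV, 1 and 1 of complex II, 1 and 2 of ATP synthase, and 1 and 0 for cytochrome c, where 25.5% of all genes were higher and 26.3% lower.

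The HP/total ratio, which asks whether HP RNA changed by another amount than total RNA, was called for none of the 44 genes by edgeR's interaction test over all 12 libraries, nor by DESeq2. Libraries were scaled to each other, so the ratio is relative, and a shift shared by all mRNAs would not show in it. The study describes a slight change of the polysome profile itself after silencing. At an unadjusted p under 0.05 for HP/total there were 4 of the 44 members, and 1120 of all 15920 genes. Of all 15920 genes, 0.0817% were called higher and 0.0817% lower. The median of the members was 0.06, against 0.04 over all genes, and 33 of 44 were above 0, where 9693 of 15920 genes were. ATP5MK had the lowest p, at 0.38 (SE 0.09, adjusted p = 0.18). Its log2 ratio of HP to total CPM was −0.75, −0.79 and −0.96 in experiments 1, 2 and 3 with hnRNP U siRNA, against −1.39, −1.05 and −1.21 with control siRNA. All ratios with hnRNP U siRNA lay above all with control siRNA, and the change was upward in 3 of 3 experiments. Blocks changed this call. With the experiment as a block ATP5MK was higher (adjusted p = 0.019), the 1 member so called, where 0.302% of all genes were. With the culture as a block ATP5MK and UQCRH were higher, 2 members, where 0.609% of all genes were. Without HP replicate 2 of control siRNA ATP5MK was higher too (log2 0.46, adjusted p = 0.024).

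UQCRH had an HP/total change of 0.24 (SE 0.07, adjusted p = 0.38). Its log2 ratios of HP to total CPM were −0.57, −0.61 and −0.68 with hnRNP U siRNA, against −0.97, −0.77 and −0.85 with control siRNA. These did not overlap, and the culture block gave an adjusted p of 0.045. NDUFA4, long listed with complex I and now placed in complex IV, had 0.23 (SE 0.08, adjusted p = 0.49). Its log2 ratios were 0.42, 0.34 and 0.31 with hnRNP U siRNA, against −0.02, 0.29 and 0.07 with control siRNA, and experiment 2 moved least. ATP5IF1 went the other way with −0.16 (SE 0.07, adjusted p = 0.68), and had log2 ratios of 0.34, 0.13 and 0.08 with hnRNP U siRNA, against 0.36, 0.35 and 0.30 with control siRNA, lower in 3 of 3 experiments with overlapping groups. For the subunits the study followed as proteins, the 95% intervals of the HP/total change were −0.06 to 0.24 for ATP5F1A, −0.06 to 0.19 for UQCRC2 and −0.01 to 0.23 for SDHB.

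**Figure D3:**
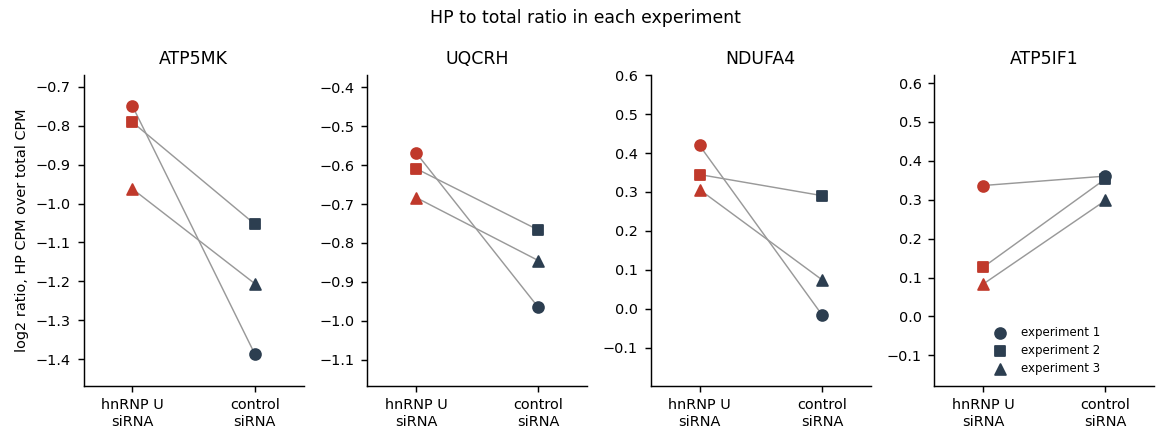
Log2 ratio of HP CPM to total CPM (y axis, all panels spanning the same range) in each experiment with hnRNP U siRNA and control siRNA (x axis), for the 4 genes with the lowest p for HP/total. Lines join the same experiment; ATP5MK, UQCRH and NDUFA4 are higher with hnRNP U siRNA in every experiment, and ATP5IF1 is lower.

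Between RNAs the 44 genes differed far more than between siRNAs, and in an order that followed coding length. In HP RNA against total RNA, 25 were higher and 16 lower with hnRNP U siRNA, and 25 were higher and 15 lower with control siRNA. Among all genes 34.4% were higher and 33.7% lower with hnRNP U siRNA, and 33.1% and 32.0% with control siRNA. The members' median log2 ratio was 0.32 with hnRNP U siRNA and 0.35 with control siRNA, against −0.02 and −0.02 over all genes. These comparisons share libraries with those above and with the HP/total test.

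All 11 members of 200 or more codons (in the canonical transcript of GENCODE) were higher in HP RNA with either siRNA. Among all protein-coding genes tested, 1879 of 3610 genes of 200 to under 400 codons and 2876 of 7573 of 400 or more were higher with hnRNP U siRNA, and 1857 and 2773 of them with control siRNA. ATP5F1C, of 298 codons, had 322, 342 and 320.2 CPM in HP RNA, against 165, 169 and 165 CPM in total RNA, with hnRNP U siRNA. With control siRNA it had 327, 341 and 348 CPM in HP RNA, against 179.8, 188 and 181 CPM in total RNA. The 2 RNAs were far apart with both siRNAs, with log2 ratios of 0.95 (SE 0.04, adjusted p = 8.3e-13) and 0.89 (SE 0.05, adjusted p = 1.4e-09). UQCRC1, of 480 codons, had 328, 389.9 and 375 CPM in HP RNA, against 176, 187 and 193 CPM in total RNA, with hnRNP U siRNA and a log2 ratio of 0.95 (SE 0.06). With control siRNA its log2 ratio was 0.90 (SE 0.07). ATP5PB, of 256 codons, and ATP5PD, of 161, followed with 0.93 and 0.89 with hnRNP U siRNA, and 0.86 and 0.87 with control siRNA. Complex II (4 of 4), the core of complex III (4 of 4), and subunit c (3 of 3) were higher in HP RNA throughout with both siRNAs.

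Of the 16 members under 100 codons, 13 were lower in HP RNA with each siRNA, a share near that of all protein-coding genes of this length, of which 196 of 255 were lower with hnRNP U siRNA and 199 of 255 with control siRNA. UQCR11, of 56 codons, had 26.1, 23.1 and 23.7 CPM in HP RNA, against 55.8, 51.8 and 49.0 CPM in total RNA, with hnRNP U siRNA. With control siRNA it had 17.8, 17.3 and 20.2 CPM in HP RNA, against 42.5, 41.9 and 41.6 CPM in total RNA. Less than its total share was left in HP RNA, with log2 ratios of −1.13 (SE 0.06, adjusted p = 2.0e-11) and −1.18 (SE 0.07, adjusted p = 1.8e-09). ATP5F1E, of 51 codons and the shortest, had 60.0, 60.7 and 56.7 CPM in HP RNA, against 108, 115 and 113 CPM in total RNA, with hnRNP U siRNA, and log2 ratios of −0.94 (SE 0.05) and, with control siRNA, −1.06 (SE 0.06). It was the 1 subunit of the F1 head that was lower in HP RNA, the other 4 being higher. ATP5MK, of 58 codons, had 31.8, 38.9 and 34.0 CPM in HP RNA, against 83.2, 80.7 and 78.6 CPM in total RNA, with control siRNA, and the lowest log2 ratio there, −1.21 (SE 0.07). With hnRNP U siRNA it had −0.86 (SE 0.06). UQCR10, of 63 codons, had −0.90 with hnRNP U siRNA and −0.80 with control siRNA, and UQCRH, of 91, had −0.64 and −0.86. All 5 small membrane subunits of ATP synthase were lower with both siRNAs, as were all 5 small subunits of complex III apart from UQCRB with control siRNA, at −0.04. Calls of UQCRB and ATP5MG with hnRNP U siRNA rested on single libraries: UQCRB was lost without total replicate 2 or HP replicate 3 (adjusted p = 0.12 and 0.13), and ATP5MG without total replicate 1 or 2 or HP replicate 2 (adjusted p = 0.081, 0.062 and 0.076).

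By length class, the members' median log2 ratios with hnRNP U siRNA were −0.47 under 100 codons (16 genes), 0.45 from 100 to under 200 (17 genes), 0.84 from 200 to under 400 (6 genes) and 0.80 at 400 or more (5 genes). With control siRNA the medians were −0.48, 0.56, 0.80 and 0.75. Among all protein-coding genes tested, the same classes had medians of −0.68, −0.06, 0.24 and 0.04 with hnRNP U siRNA and −0.73, −0.06, 0.24 and 0.05 with control siRNA (255, 1307, 3610 and 7573 genes). Across the 44 members, coding length and log2 ratio had a Spearman correlation of 0.88 with either siRNA, across genes that share their libraries and are not replicates. It was 0.65 over the 37 nuclear subunits of complex I with both siRNAs, and −0.11 with hnRNP U siRNA and −0.10 with control siRNA over 12745 protein-coding genes. For the HP/total change between siRNAs, the members under 100 codons had a median of 0.10 with 14 of 16 above 0, and all 255 genes of that length a median of 0.10. The length of the whole transcript went less closely with the ratio of the members, at 0.34 with hnRNP U siRNA and 0.33 with control siRNA.

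The short subunits of complex IV lay higher than those of complex III and ATP synthase, a pattern picked out after its values were seen and not tested. Its 7 members of 63 to 86 codons had log2 ratios of −0.21 to 0.34 with hnRNP U siRNA and of −0.35 to 0.33 with control siRNA. The 4 members of complex III of 56 to 91 codons ran from −1.13 to −0.64 with hnRNP U siRNA and from −1.18 to −0.73 with control siRNA, and the 5 of ATP synthase of 51 to 94 codons from −0.94 to −0.45 and from −1.21 to −0.33. COX7B, of 80 codons, was higher in HP RNA, with 95.7, 90.2 and 85.5 CPM in HP RNA, against 63.7, 74.5 and 72.8 CPM in total RNA, with hnRNP U siRNA, at 0.34 (SE 0.06, adjusted p = 3.7e-05). With control siRNA its log2 ratio was 0.33 (SE 0.06, adjusted p = 1.3e-04). NDUFA4, of 81 codons, had 0.33 (SE 0.05, adjusted p = 5.1e-06) with hnRNP U siRNA and 0.12 (SE 0.06, adjusted p = 0.11) with control siRNA. COX7A2L, of 114 codons and known for joining complexes III and IV in supercomplexes, lay below its length class, with −0.54 (SE 0.05, adjusted p = 1.3e-08) and −0.52 (SE 0.08, adjusted p = 2.3e-05).

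**Figure D4:**
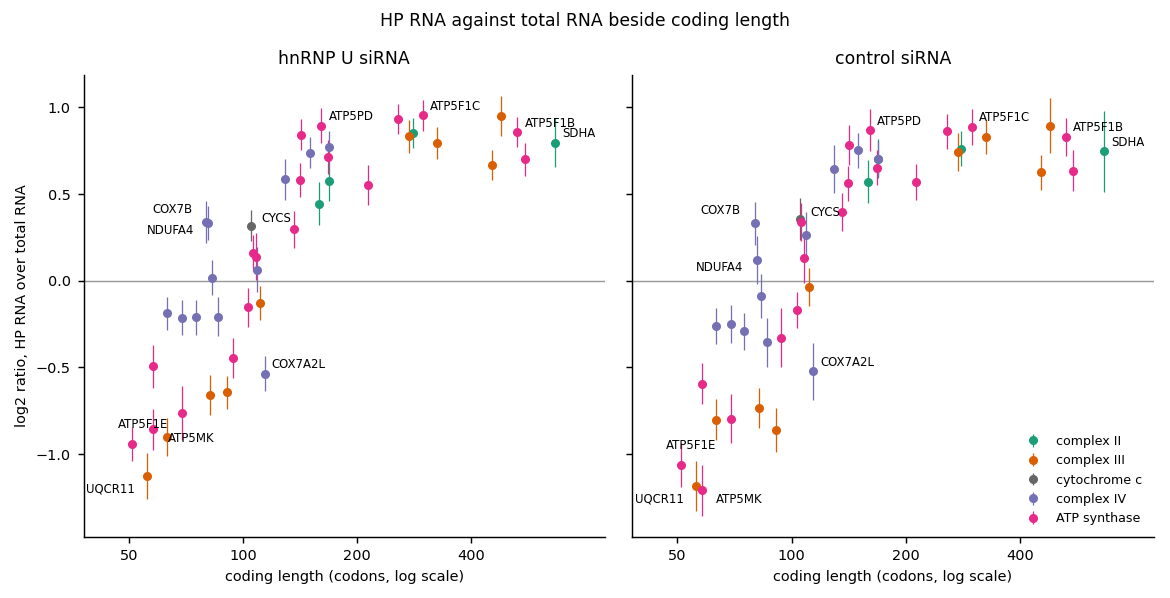
Log2 ratio of HP RNA to total RNA (y axis, edgeR, bars 95% intervals) against coding length in codons (x axis, log scale) for the 44 genes with hnRNP U siRNA and control siRNA, coloured by complex. Genes of 200 or more codons all lie above 0, UQCR11, ATP5F1E and ATP5MK lie lowest, and COX7B, NDUFA4 and COX7A2L stand off the general order.

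RG4 motifs, defined here by 4 tracts of 3 or more guanines set 1 to 7 nt apart, were found in the canonical transcripts of 4 members, or 9.09%, where 26.7% of the 12745 protein-coding genes tested held one. In any annotated transcript 11 of the 44 held one, where 44.6% of genes did. Members and all genes were not matched for transcript length in these shares. The motif of SDHC is shown as the example of such a stretch in a 3′UTR. It lies on chr1:161362801-161362819 of GRCh38 (plus strand, GENCODE), with the G runs in capitals and written as DNA.
SDHC 3′UTR: GGGGatGGGccGGGttGGG
SDHC rose by 0.17 in total RNA, while UQCR11, whose motif lies in its coding sequence, rose in both RNAs. Of the other carriers, UQCRB fell in HP RNA, at −0.16 (SE 0.06, adjusted p = 0.027), with −0.05 in total RNA, and CYC1 had −0.06 in total and −0.11 in HP RNA, not called but lower in HP RNA under the block (adjusted p = 0.024). Of the 11 members with a motif in any transcript, 3 were higher and 1 lower in total RNA, against 4 and 6 of the 33 without, where 28.0% of all genes were higher and 29.3% lower. In HP RNA 2 of the 11 were higher and 2 lower, against 4 and 4 of the 33, where 25.5% and 26.3% of all genes were. Their median HP/total change was 0.07, against 0.06 for the 33 without. A motif match is a description of letters and was not tested as a fold or a binding site.

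More than one hnRNP U siRNA is listed by the study, and the one behind these libraries is not given in the sources used here. The 3′UTRs were searched on the transcript strand for GTATGCT. This is the 7-nt match to the seed of the strand complementary to the first sequence the study lists. Of the members 2 held it, or 4.55%, where 7.31% of 12730 genes with a 3′UTR did, without matching for 3′UTR length. The sites are shown, with the match in capitals, because such sites are where a siRNA can act on other transcripts.
NDUFA4 3′UTR: ttatgctgaaaGTATGCTctgaactttag
COX7B 3′UTR: gagtgctagaaGTATGCTgtcatggcata
The matches lie on chr7:10933424-10933430 (minus strand) and chrX:77907107-77907113 (plus strand) of GRCh38. Neither gene was called in total RNA. NDUFA4 had 72.7, 79.9 and 79.4 CPM with hnRNP U siRNA, against 82.2, 79.4 and 78.6 CPM with control siRNA, at −0.05 (SE 0.05, adjusted p = 0.33). COX7B had 63.7, 74.5 and 72.8 CPM with hnRNP U siRNA, against 69.6, 69.4 and 70.3 CPM with control siRNA, at 0.01 (SE 0.05, adjusted p = 0.91).

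Levels per kilobase of exon put ATP5F1B highest and SDHA lowest of the 44 with either siRNA, whichever length was used. In total RNA ATP5F1B averaged 438 CPM per kb with hnRNP U siRNA and 442 CPM per kb with control siRNA over all its annotated exons, or 557 and 562 CPM per kb over its canonical transcript. SDHA averaged 2.38 and 2.40 CPM per kb over all exons, or 7.68 and 7.77 over the canonical transcript. The order between depended on the length taken (Spearman correlation of 0.70 between the orders across the 44 genes with control siRNA), and UQCRB, whose canonical transcript has a long 3′UTR, was low by both. Tissue-restricted forms were scarce: COX6A2, COX7A1 and COX7B2 had 0 counts in every library, which allows up to 3 counts, or 0.099 CPM in the shallowest library, COX4I2 stayed at or under 0.112 CPM, and UQCRHL, a copy of UQCRH, averaged 3.55 CPM with hnRNP U siRNA and 3.82 CPM with control siRNA in total RNA. Of the 44 genes, 33 have annotated pseudogenes, 176 in all, which took at least 1% of a member's counts for 1 member, COX6A1. This count left out copies annotated as long noncoding RNA, such as the SDHAP4 entry given above beside SDHA, which also passed 1%. A gene overlaps 12 members on the same strand and 14 on the opposite strand, and whether the counting told strands apart is not given in the sources used here. Opposite-strand genes at higher levels than TAF5 were EMC8 at COX4I1 (97.9 CPM over the total libraries), WDR77 at ATP5PB (49.0), KCTD2 at ATP5PD (46.2) and GABPA at ATP5PF (30.8). The counts of these members are uncertain too.

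Other subunits of the respiratory chain, from lists of known members, were counted beside these. Of 37 nuclear subunits of complex I, 10 rose and 10 fell in total RNA, where 28.0% of all genes rose and 29.3% fell. In HP RNA 9 rose and 8 fell, where 25.5% and 26.3% of all genes did. None was called for HP/total, with 1, NDUFA7, at an unadjusted p under 0.05, which 1120 of all 15920 genes reached. Their log2 fold changes in total RNA ran from −0.72 for NDUFV2 to 0.58 for NDUFA7. Both lay near the floor, reaching at most 0.777 and 0.886 CPM in any library. Well above the floor, NDUFC1 had −0.70 (adjusted p = 2.65e-09), averaging 31.5 CPM with hnRNP U siRNA and 51.2 CPM with control siRNA. NDUFB10 had 0.56 (adjusted p = 4.58e-09), averaging 166 CPM with hnRNP U siRNA and 112 CPM with control siRNA. All 6 mitochondria-encoded subunits of complexes III to V fell in total RNA, with a median log2 fold change of −0.48. MT-CO2, a subunit of complex IV, averaged 4913 ± 499 CPM with hnRNP U siRNA and 7653 ± 206 CPM with control siRNA in total RNA (SD, n = 3 each), while the 12 nuclear subunits of complex IV had a median log2 fold change of −0.02. In HP RNA, where mitochondria-encoded RNA is scarce (median log2 ratio of HP to total RNA −3.22 with hnRNP U siRNA and −3.60 with control siRNA), 1 of the 6 rose and 3 fell. For HP/total all 6 were above 0, with a median of 0.43, and 2 were called higher, where 0.0817% of all genes were: MT-ATP8, a subunit of ATP synthase whose gene overlaps MT-ATP6, at 1.18 (SE 0.14, adjusted p = 2.2e-04), and MT-CYB, the cytochrome b of complex III, at 0.78 (SE 0.13, adjusted p = 0.0094). MT-CYB was not called in HP RNA (0.10, adjusted p = 0.42, groups overlapping) and fell in total RNA, at −0.65. MT-ATP8 was low in HP RNA, averaging 10.6 CPM with hnRNP U siRNA and 5.72 CPM with control siRNA. In experiments 1, 2 and 3 the HP/total change was 1.04, 0.87 and 0.49 for MT-CYB, and 1.44, 1.43 and 0.63 for MT-ATP8. The study states that mitochondria-encoded proteins are made by mitoribosomes, so these ratios do not measure loading on cytoplasmic ribosomes.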

How the data were processed

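RNA was sequenced from HCT116 cells with poly(A), directional libraries. The authors' pipeline, per the methods and the submitters' processing notes (CASAVA 1.8, STAR, hg38), gave the deposited raw counts per gene, which were used unchanged. Whether the counting used strand is not given in the sources used here. Groups came from the sample labels. The study describes 3 independent experiments per group, and the sample titles give libraries of the same number a shared experiment code. Where the numbered experiments were not separate cultures, p-values measure only the spread between these samples, which may be technical.

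Genes were filtered with filterByExpr (minimum count 10), normalized by TMM and tested with edgeR 4.0.16 in R 4.3.3 (quasi-likelihood F-test, Benjamini-Hochberg over all 15920 genes, threshold 0.05). Fits of 1 RNA or 1 siRNA used its 6 libraries, and HP/total was the interaction over 12 libraries. SE is the fold change over the root of F. CPM shown were scaled over all 12 libraries, so that their log2 differences between siRNAs ran 0.035 above the fitted values in HP RNA and 0.0044 above in total RNA. The procedure was tested on simulated data drawn independently for each library. These had no shared experiment effect, so they do not bear on the pairing of libraries. DESeq2 1.42.0, other normalizations and filters, a fit of all libraries, blocks and leaving out single libraries were alternatives. Same-numbered libraries deviated together (correlation of deviations 0.136 to 0.509 over 12 pairs, against −0.411 to 0.0619 over 24 pairs of different number). The samples are thus paired in the data as well as by experiment code. The main fits left this pairing out, and the block fits used it.

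Coding lengths, exons and motifs came from GENCODE release 44 (62639 of 62703 identifiers found), in place of a planned RefSeq protein length. Named genes were the 6 called members with the largest change each way per RNA, the 4 of lowest p for HP/total, the 4 highest and 4 lowest in HP against total RNA, the genes the study followed by blot or RT-qPCR, and subunit c. Members and lists were chosen with earlier results of these data known.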

Additional observations from a re-analysis of the deposited data

How the results depend on the processing

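None of the results recomputed under the alternatives reversed. In HP RNA, 14 members were higher with all 12 libraries in 1 fit and 13 with the experiment as a replicate block, and leaving out single libraries gave 3 to 7, the lowest without control HP replicate 3. Of all genes 29.2% were higher under that block, and no such share is at hand for the other fits just named. For HP/total, 1 member was higher with the experiment block and 2 with the culture block, and leaving out single libraries gave 0 to 1, the 1 without control HP replicate 2. The causes were not tested. The blocks changed no other count by more than 1.5 times and lost no call. The next count took the genes of the naming rule in some comparisons only. Of those recomputed values, 577 kept their side of the threshold, 17 lost a call and 4 gained one, the 4 being ATP5MK and UQCRH for HP/total. Other calls changed too, some of them for named genes in other comparisons. Under the experiment block 10 were gained in HP RNA, NDUFA4 among them, and 2 in total RNA, ATP5F1A among them. ATP5IF1 lost its call in total RNA in some fits that left out 1 library. The spread of levels per kb between the highest and lowest member was 184-fold over all exons and 72.4-fold over canonical transcripts. SDHA shares sequence with its copies, which limits its value.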
